A study of Mus musculus with 12 samples.

Results

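The subcortical maternal complex is a protein assembly of the egg, and its transcripts were followed here in mouse ovaries with a deletion of the kinase gene Mtor directed to oocytes. The 9 genes were taken by symbol from the deposited table of 24255 genes: Nlrp5, Ooep, Tle6 and Khdc3 of the complex, Padi6 and Zbed3, which are described with it, and Nlrp2, Nlrp4f and Nlrp14, further NLRP genes of the oocyte. All 9 symbols were found. RNA sequencing was done on whole ovaries of C57BL/6 mice aged 6 months, collected 46 h after 5 IU of equine chorionic gonadotropin (eCG), a hormone that drives follicle growth. Wild-type ovaries (WT, n = 7 libraries) were compared with ovaries of Mtor conditional knockout mice (CKO, n = 5 libraries). In CKO the deletion depends on a Cre recombinase driven by the promoter of Gdf9, a gene of the oocyte, so the other ovarian cells keep Mtor, and both genotypes received the hormone. Values are FPKM, fragment numbers scaled by transcript length and library size, so levels of different genes can be set side by side per unit of length. The labels do not tie libraries to animals, so the tests reflect only how far these libraries scatter, which may be technical.

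Oocytes make the proteins of the complex while they grow and store them beneath the cell cortex for the embryo. NLRP5 (also called MATER), OOEP (FLOPED), TLE6 and KHDC3 (FILIA) form its centre, and embryos of mothers that lack Nlrp5, Ooep or Tle6 stop dividing in early cleavage. PADI6, an arginine deiminase family protein, is needed for the fibrous lattices that fill the egg cytoplasm. NLRP proteins carry a nucleotide-binding domain and leucine-rich repeats, and a group of them is made chiefly by oocytes rather than by immune cells. In whole ovaries, fewer oocytes, less RNA per oocyte and a change in RNA of other ovarian cells cannot be told apart.

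The stretches before the transcription starts of 3 members are shown as examples for the results that follow: Nlrp5 and Padi6, which did not pass the test of genotype, and Zbed3, which fell and is the most abundant. A difference in response between Padi6 and Zbed3 did not pass either (exact permutation test, adjusted p = 0.151). Each holds 250 bases ending just before the start, from RefSeq on GRCm38.p6 (the sequence of mm10), 5′ to 3′ on the strand of the gene, with capitals on every match to the E-box CANNTG, the pattern bound by basic helix-loop-helix factors such as FIGLA. The windows are chr7:23385639-23385888 (plus strand) for Nlrp5, chr4:140742644-140742893 (minus strand) for Padi6 and chr13:95323355-95323604 (plus strand) for Zbed3.
Nlrp5: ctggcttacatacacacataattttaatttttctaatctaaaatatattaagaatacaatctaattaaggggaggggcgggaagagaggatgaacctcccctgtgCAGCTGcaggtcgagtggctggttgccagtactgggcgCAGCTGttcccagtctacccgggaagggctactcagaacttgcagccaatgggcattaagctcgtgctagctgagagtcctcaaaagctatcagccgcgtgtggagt
Padi6: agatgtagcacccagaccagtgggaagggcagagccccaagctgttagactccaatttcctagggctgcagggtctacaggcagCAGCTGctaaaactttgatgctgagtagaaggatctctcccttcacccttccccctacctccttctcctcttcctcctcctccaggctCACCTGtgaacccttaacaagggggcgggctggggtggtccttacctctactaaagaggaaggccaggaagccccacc
Zbed3: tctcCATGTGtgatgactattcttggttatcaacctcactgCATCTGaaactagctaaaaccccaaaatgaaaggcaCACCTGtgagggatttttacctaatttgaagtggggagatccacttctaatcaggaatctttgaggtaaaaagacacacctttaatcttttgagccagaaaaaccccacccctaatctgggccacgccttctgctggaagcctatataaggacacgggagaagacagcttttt
Counted back from the start, the matches began at -145 and -107 in Nlrp5, at -166 and -78 in Padi6 and at -246, -209 and -173 in Zbed3. Of the 8 members with an entry, 7 held CANNTG in this window, against 66.2% of 32851 promoter windows of the same length, and Nlrp2 held none. Other motifs were searched on both strands, and none of the 3 printed windows held any of them. The homeobox pattern TAATTG stood in 1 of the 8 members (Ooep), against 7.17% of all windows. The related pattern TGATTG stood in 2 (Tle6 and Nlrp2), against 12.7%. The TATA box pattern TATAAA stood in 0 of the 8, against 12.4%. Only this exact string was counted, and a variant such as TATATAA, which the Zbed3 window holds, was not. No stretch of letters can match more than 1 of these patterns at the same place, but neighbouring matches may overlap. Nlrp14 has no entry in the table of promoters.

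Several features of the libraries bear on all values. A single fragment on a transcript of 1 kb was worth 0.300 to 0.660 FPKM, read from the steps between low values, so the depth spanned a 2.2-fold range, and total counts were not used here. Mtor itself averaged 4.70 ± 0.702 FPKM over WT (SD, n = 7) against 5.02 ± 0.499 FPKM over CKO (SD, n = 5), with adjusted p = 0.709 (limma), and a whole-ovary level is no check of a deletion restricted to oocytes. The unnumbered WT library, which could not be tied to a single WT sample by its column name, had a summed level of 3 theca genes (Cyp17a1, Insl3, Lhcgr) of 51.2 FPKM, against 361 to 627 FPKM in the 6 other WT libraries. Its 2 luteal genes (Ptgfr, Akr1c18) summed to 7.69 FPKM, against 60.5 to 597 FPKM there. Cyp19a1 was at 1.26 FPKM against 28.8 to 88.9 FPKM, and Amh at 309 FPKM against 35.1 to 126 FPKM, both picked with their values known. Its granulosa sum, 3218 FPKM, lay within the range of the other WT libraries. CKO replicates 2 and 3 held oviduct transcripts (Ovgp1 and Foxj1, summed level 257 and 83.4 FPKM, against 1.66 FPKM or less in WT and 1.99 FPKM or less in the other CKO libraries). The summed levels of 6 granulosa genes were 2867 to 5280 FPKM in WT and 1251 to 2147 FPKM in CKO, those of 3 stroma genes were 308 to 492 FPKM and 1105 to 1581 FPKM, and those of 3 macrophage genes were 12.03 to 38.1 FPKM and 48.8 to 136 FPKM. By their means, Inha, Dcn and Cd68 were the largest parts of these sums. Of the genes summed, Fshr, Cyp19a1, Foxl2, Pdgfra and Adgre1 overlapped between the genotypes. The theca sum was 153 to 327 FPKM in CKO. Blood transcripts (5 genes) were highest in CKO replicates 1 and 5, at 276 and 316 FPKM, and in WT replicate 1, at 248 FPKM, against 12.96 to 74.8 FPKM in the other libraries. Their part in the results was not tested.

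Of the 9 transcripts, 6 were lower in CKO, while the mean levels of Nlrp5 were 9.25 FPKM in WT and 9.502 FPKM in CKO. In the fit over all 13168 genes tested (limma on log2(FPKM + 1), Benjamini-Hochberg adjusted p under 0.05), 6 of the 9 fell: Khdc3, Nlrp14, Zbed3, Ooep, Nlrp2 and Tle6. Padi6, Nlrp4f and Nlrp5 did not pass, and 0 rose, also at an unadjusted p under 0.05 (0 of 9) and in an exact Wilcoxon test (0 of 9). Over all genes tested, 7.59% were called lower, 8.7% higher and 16.3% in either direction. At an unadjusted p under 0.05 (limma), 3974 of all 13168 genes passed, 2038 of them higher. The median log2 fold change was -1.03 over the 9 genes and -0.01 over all genes tested. WT and CKO values were fully separate for 3 of the 9, Khdc3, Tle6 and Zbed3, all lower in CKO, against 3.65% of all genes tested that were lower without overlap, 4.09% that were higher and 7.73% in either direction. All 9 passed the filter of at least 1 FPKM in at least 5 libraries, but 3 of them (Khdc3, Nlrp2 and Nlrp4f) reached it through WT, and no CKO library of Nlrp2 was at 1 FPKM, so these counts are a description.

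**Figure D1:**
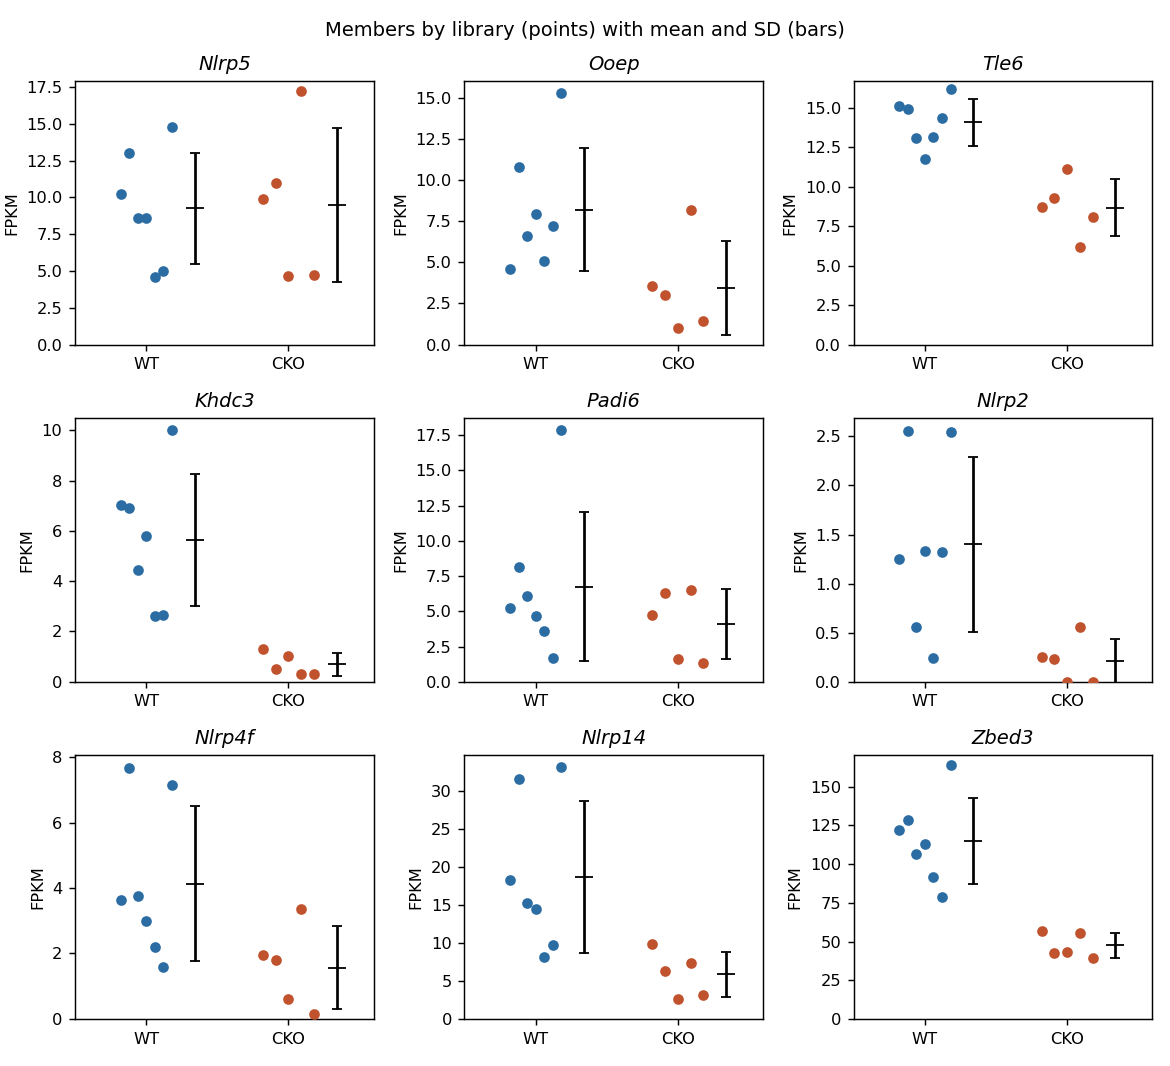
Level in FPKM (vertical axis, from 0, a separate scale for each gene) of the 9 genes in 7 WT and 5 CKO libraries; each point is 1 library, and the bar gives the mean and SD, with the lower end for Nlrp2 in CKO running below the axis. The CKO points of Khdc3, Tle6 and Zbed3 all lie below the WT points, while those of Nlrp5 cover the same range.

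Nlrp5, the scaffold of the complex (chromosome 7, 23385889 to 23441922, plus strand, mm10), ranged in WT from 4.56 through a median of 8.59 to 14.8 FPKM. In CKO it was at 9.89, 11.002, 4.67, 17.2 and 4.69 FPKM in replicates 1 to 5. The groups overlap throughout, and the highest of all 12 values is that of CKO replicate 4. The means were 9.25 ± 3.79 FPKM (SD, n = 7) and 9.502 ± 5.22 FPKM (SD, n = 5). The log2 fold change was -0.02 with a 95% interval of -0.71 to 0.67 (limma, adjusted p = 0.976). That interval spans changes of both signs, and it holds the estimate of Tle6 (-0.66) but not those of the 5 other members that fell.

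Ooep, a small protein with a KH domain (chromosome 9, 78376109 to 78378725, minus strand), ranged in WT from 4.57 through 7.23 to 15.3 FPKM. In CKO it was at 3.57, 3.04, 1.03, 8.16 and 1.43 FPKM in replicates 1 to 5. CKO replicate 4 lies within the WT range and the other 4 lie below all WT libraries. Its log2 fold change was -1.17 (SE 0.35; limma, adjusted p = 0.033). The call is close to the threshold and did not survive the removal of any 1 of 6 libraries, namely WT replicate 2, WT replicate 4, the unnumbered WT library or CKO replicate 2, 3 or 5 (adjusted p from 0.0505 to 0.0917, with log2 fold changes from -1.19 to -0.94). With each of the 12 libraries left out in turn the estimate lay between -1.49 and -0.94.

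Khdc3, the second KH-domain protein of the complex (chromosome 9, 73101836 to 73104438, plus strand), had the largest fall of the 9. It ranged in WT from 2.62 through 5.80 to 9.99 FPKM. In CKO it was at 1.29, 0.509, 1.03, 0.304 and 0.320 FPKM in replicates 1 to 5, every library below every WT library. The ratio of the means was 8.15-fold, WT over CKO, and the log2 fold change, which understates changes of low genes, was -1.91 (SE 0.28; limma, adjusted p = 0.000654). The CKO values correspond to an estimated 1 to 7 fragments per library, against 10 to 44 in WT, so the CKO level rests on few fragments. The annotation has another protein-coding gene, Gm20509, overlapping Khdc3 on the same strand, and the authors' counting could have split reads between them.

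Tle6, a relative of the Groucho transcriptional co-repressors (chromosome 10, 81590904 to 81601073, minus strand), fell least among those that passed, and its WT libraries were the least scattered of the 9 genes relative to their mean. WT ranged from 11.8 through 14.3 to 16.2 FPKM. CKO was at 8.70, 9.27, 11.1, 6.17 and 8.05 FPKM in replicates 1 to 5, again without overlap. The means were 14.1 ± 1.49 FPKM (SD, n = 7) and 8.66 ± 1.80 FPKM (SD, n = 5). The change of Tle6 was -0.66 on the log2 scale (SE 0.13; limma, adjusted p = 0.00377). The highest CKO value of Tle6 was in replicate 3 and the lowest in replicate 4, whereas Nlrp5, Ooep, Padi6, Nlrp2 and Nlrp4f each had their highest CKO value in replicate 4.

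Zbed3, a BED-type zinc finger protein that binds AXIN and is found with the complex in the egg (chromosome 13, 95323612 to 95337841, plus strand), was the most abundant member in every library. WT ranged from 78.8 through 113 to 164 FPKM. CKO was at 56.8, 42.3, 43.5, 55.8 and 39.3 FPKM in replicates 1 to 5, all below WT. Zbed3 had a log2 fold change of -1.24 (SE 0.16; limma, adjusted p = 0.000404), and its call held whichever of the 12 libraries was left out. These values rest on an estimated 145 or more fragments in each library, the most of the 9 genes. The annotation places the snoRNA genes Snora47 and Gm22661 within Zbed3 on the same strand, and reads from them could have been counted with it.

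Padi6 (chromosome 4, 140727355 to 140742643, minus strand) varied most among WT libraries relative to its mean. WT ranged from 1.66 through 5.24 to 17.9 FPKM, the highest in the unnumbered library. CKO was at 4.72, 6.29, 1.65, 6.49 and 1.32 FPKM in replicates 1 to 5, so the groups overlap. The means were 6.76 ± 5.30 FPKM (SD, n = 7) and 4.09 ± 2.48 FPKM (SD, n = 5). Its log2 fold change was -0.54 with a 95% interval of -1.45 to 0.38 (limma, adjusted p = 0.438), an interval that holds both no change and the estimates of Ooep and Zbed3.

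Nlrp14, a maternal factor that acts on the methylation regulator UHRF1 (chromosome 7, 107166990 to 107198102, plus strand), ranged in WT from 8.21 through 15.2 to 33.2 FPKM and was at 9.80, 6.27, 2.60, 7.39 and 3.21 FPKM in CKO replicates 1 to 5. Only CKO replicate 1 reached into the WT range. Nlrp14 had a log2 fold change of -1.49 (SE 0.35; limma, adjusted p = 0.011). Without CKO replicates 2 and 3, which held oviduct transcripts, it was -1.28 with adjusted p = 0.0623.

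Nlrp4f, which is described with the complex and the cytoplasmic lattices (chromosome 13, 65177111 to 65205977, minus strand), ranged in WT from 1.597 through 3.62 to 7.68 FPKM. In CKO it was at 1.96, 1.79, 0.601, 3.36 and 0.141 FPKM in replicates 1 to 5, overlapping WT in 3 libraries. At a log2 fold change of -1.03 (SE 0.36), Nlrp4f did not pass (limma, adjusted p = 0.0665), except without WT replicate 7 (adjusted p = 0.04) or without CKO replicate 4 (adjusted p = 0.0337). Nlrp4f is 1 of several closely related Nlrp4 genes, among which reads could have been split.

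Nlrp2 (chromosome 7, 5298547 to 5351035, minus strand) was the least abundant member in 11 of the 12 libraries. WT ranged from 0.239 through 1.33 to 2.56 FPKM, and CKO was at 0.255, 0.232, 0, 0.557 and 0 FPKM in replicates 1 to 5, where 0 can also be a failed estimate. These are an estimated 2 to 22 fragments per library in WT and 0 to 4 in CKO. The fitted log2 fold change, -0.92 (SE 0.27; limma, adjusted p = 0.0304), depends on the added 1 FPKM at such low levels. This call too was lost on removal of any 1 of 6 libraries, namely WT replicate 1, 2 or 4 or CKO replicate 1, 3 or 5 (adjusted p from 0.0529 to 0.0728). Gm5065 and Gm18757 overlap Nlrp2 on the other strand, and reads of both strands may have been counted together.

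The 6 calls depended in part on single libraries and on the test. The number of members called lower was 4 to 7 with any 1 library removed. It was 3 without CKO replicates 2 and 3 (Khdc3, Tle6 and Zbed3) and 3 in the exact Wilcoxon test. In the authors' deposited table, the Cuffdiff comparison has q under 0.05 for Ooep (q = 0.0163), Tle6 (q = 0.0157), Khdc3 (q = 0.00408), Nlrp4f (q = 0.00112), Nlrp14 and Zbed3 (both q = 0.0006). It has q of 0.0592 for Padi6 and 0.94 for Nlrp5. For Nlrp2 it lists q of 1 beside a log2 fold change of -2.75, and such a q can also stand for a gene that was not tested. How many of all genes have q under 0.05 there was not counted. The log2 fold changes of that comparison, CKO over WT, ran from -3.03 for Khdc3 to 0.04 for Nlrp5.

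A member that passed and one that did not are not thereby shown to differ, so the difference between members was tested within libraries. For each of the 36 pairs, the difference of log2(FPKM + 1) was taken in every library and its genotype means were compared by exact permutation (two-sided, over all ways to divide 12 libraries into 7 and 5), adjusted over the 36 pairs. In 11 pairs the difference changed with the genotype at an adjusted p under 0.05. Nlrp5 was in 6 of them and Khdc3 in 5, the pair of both counted under each. Relative to Nlrp5, the fall was larger for Khdc3 by 1.89, for Nlrp14 by 1.47, for Zbed3 by 1.22 and for Nlrp4f by 1.01 on the log2 scale, each without overlap of the genotypes and each with exact permutation p = 0.0013, the smallest these divisions can give (adjusted p = 0.0114). It was larger for Ooep by 1.15 and for Nlrp2 by 0.90 (adjusted p = 0.0195 and 0.0202, exact permutation test).

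The ratio of Nlrp5 to Khdc3 shows this by library. The log2 difference of the pair lay between 0.48 and 0.83 in the WT libraries and between 1.48 and 3.81 in CKO. For Nlrp5 and Nlrp14 it lay between -1.22 and -0.70 in WT and between 0.01 and 1.12 in CKO, so Nlrp14 was the more abundant of the pair in all 7 WT libraries and Nlrp5 in all 5 CKO libraries. The 2 pairs of Nlrp5 that did not pass were those with Tle6 (0.64, adjusted p = 0.243, exact permutation test) and Padi6 (0.52, adjusted p = 0.0938). Khdc3 fell more than Tle6 by 1.25, than Padi6 by 1.37, than Nlrp2 by 0.99 and than Zbed3 by 0.67 (adjusted p from 0.0182 to 0.0289, exact permutation test). The last pair of the 11 was Padi6 and Nlrp14, with a larger fall of Nlrp14 by 0.95 (adjusted p = 0.0202).

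Limits of the pair comparison lie with few libraries and low values. The difference between Khdc3 and Nlrp2 was -0.53 with adjusted p = 0.555 when 0.1 FPKM was added in place of 1, and it and the pair of Khdc3 and Zbed3 were lost without CKO replicate 4 (adjusted p = 0.0636 and 0.0595). Without CKO replicates 2 and 3 only 120 splits remain and 0 pairs had an adjusted p under 0.05 in the exact permutation test, with 6 pairs at exactly 0.05, the smallest value reached there. In that setting the change of Nlrp5 exceeded that of Khdc3 by 2.08.

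**Figure D2:**
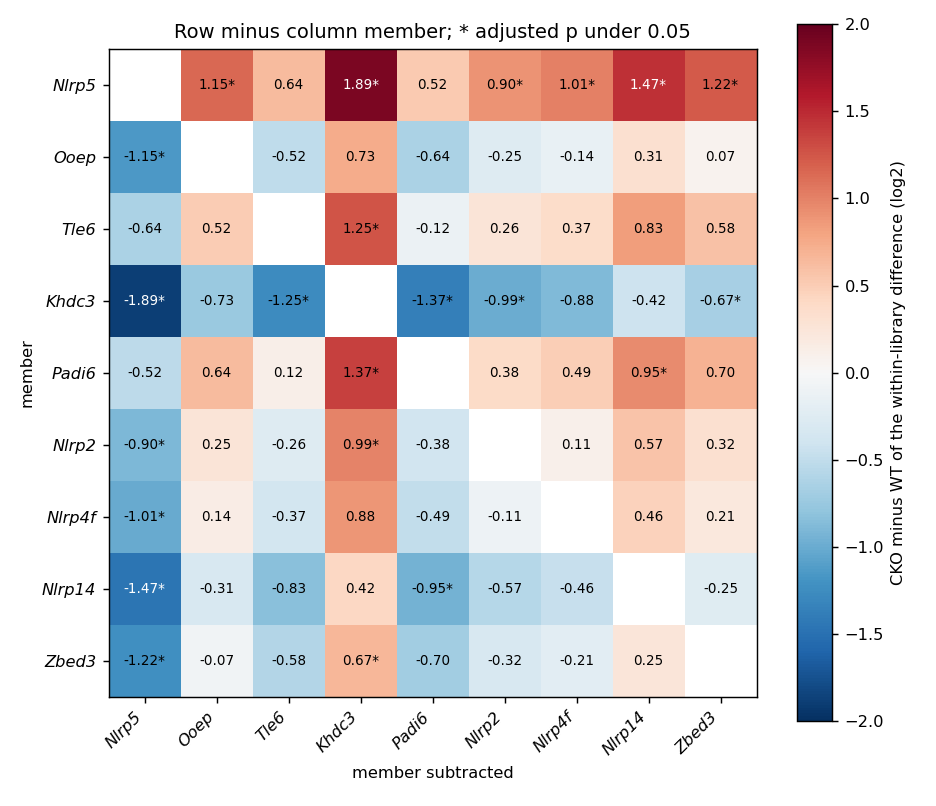
Difference between members in the change from WT to CKO (log2 scale, color and number; row member minus column member, 7 WT and 5 CKO libraries); an asterisk marks an adjusted p under 0.05 in the exact permutation test. The row of Nlrp5 is positive throughout, from 0.52 to 1.89, and that of Khdc3 negative throughout.

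Transcripts of the growing oocyte outside the complex also fell, and whether they fell further than the 9 genes was not tested as a group. Of 12 such genes listed, 9 could be tested, 7 fell and 0 rose, against the 7.59% and 8.7% given above, with a median log2 fold change of -2.36. At an unadjusted p under 0.05 (limma) the count was 8, 0 of them higher. Over all 13168 genes that count was 3974, 2038 of them higher. Of the 9 tested, 7 reached the filter through WT libraries. Mos, the kinase of the meiotic arrest, and Gdf9 and Bmp15, the growth factors of the oocyte, had log2 fold changes of -2.17, -2.62 and -2.71 (SE 0.31, 0.46 and 0.39). Zar1, which binds maternal mRNAs, had -3.40 (SE 0.49). The adjusted p of these 4 lay between 0.000592 and 0.00184 (limma). Dppa3, a protector of maternal DNA methylation, averaged 9.17 ± 4.08 FPKM over WT (SD, n = 7) against 6.40 ± 2.73 FPKM over CKO (SD, n = 5), with adjusted p = 0.322 (limma). It is mentioned outside the rule for named genes, with its values known.

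The mean log2(FPKM + 1) of these 9 reference genes lay between 2.88 and 4.53 in WT and between 0.83 and 2.69 in CKO, without overlap. Nlrp5 minus this mean was between -0.77 and -0.19 in WT and between 0.75 and 2.26 in CKO, so relative to these genes it was higher in every CKO library than in any WT library. Padi6 was likewise separate on this scale, between -1.46 and -0.29 in WT and between -0.18 and 1.54 in CKO, and the other 7 genes overlapped. Nlrp14, which fell in the ovary as a whole, lay between -0.04 and 0.79 in WT and between 0.74 and 1.54 in CKO on the same scale. Khdc3 lay between -1.39 and -0.88 and between -1.73 and 0.19, with CKO values on both sides of WT. Zar1, Bmp15 and Gdf9 are themselves part of this mean, and the values are given as a description. Zp1, Zp2 and Npm2 were too low to be tested and are not in it, and 7 of its 9 genes reached the filter through WT. The mean of the CKO libraries minus that of WT was -2.13, so any gene that fell less, member or not, lies higher in CKO on this scale. How many of all genes tested are separate on it was not counted, so the separation of Nlrp5 and Padi6 is not shown to be particular to them. Adding FPKM of 1 compresses low values, which bears on the CKO libraries more than on WT.

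With the mean of the reference genes as a covariate in the fit over all genes, none of the 9 members passed (limma, 0 of 9 at an adjusted p under 0.05), and the calls over all genes fell to 70 lower and 145 higher. The estimates became 1.63 for Nlrp5 (adjusted p = 0.0572), 1.61 for Padi6, 0.84 for Nlrp4f, 0.35 for Ooep, 0.55 for Nlrp14, 0.017 for Nlrp2, -0.82 for Khdc3, -0.73 for Tle6 and -0.37 for Zbed3. The covariate does not overlap between the genotypes, so the part of each in this fit cannot be told apart.

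**Figure D3:**
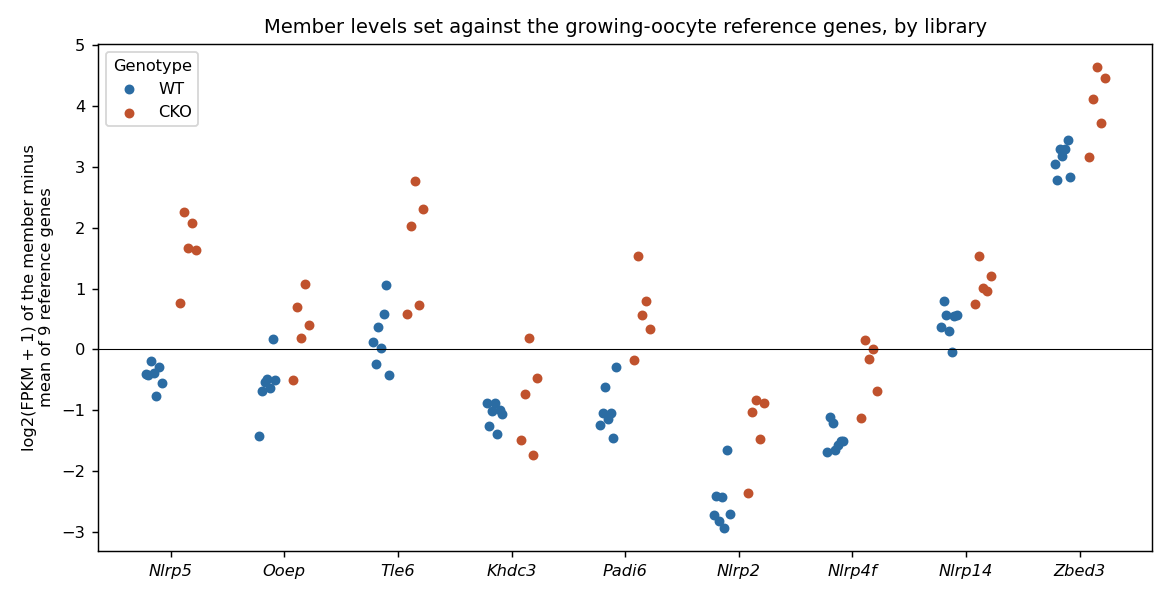
Level of each of the 9 genes set against the mean of 9 growing-oocyte reference genes (vertical axis, log2 difference) in 7 WT (blue) and 5 CKO (orange) libraries; each point is 1 library. All CKO points of Nlrp5 lie above 0.75 and all its WT points below -0.19, while the CKO points of Khdc3 spread around those of WT. The reference mean itself changed by -2.13 from WT to CKO, so a member that fell less lies higher in CKO.

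Factors that oocytes carry from the primordial follicle on were described as a separate list. Of its 8 genes, 5 could be tested, 1 fell (Taf4b) and 0 rose, against 7.59% lower and 8.7% higher over all genes. At an unadjusted p under 0.05 (limma) the counts were also 1 and 0, against 3974 of all 13168 genes, 2038 of them higher. Taf4b, a TFIID subunit of germ cells, averaged 6.88 ± 1.504 FPKM over WT (SD, n = 7) against 3.01 ± 0.989 FPKM over CKO (SD, n = 5), with a log2 fold change of -0.99 (limma, adjusted p = 0.00387). Nobox, a homeobox regulator of oocyte genes, averaged 2.53 ± 1.12 FPKM over WT against 3.51 ± 2.97 FPKM over CKO (SD, n = 7 and 5), with values of 5.10 and 7.97 FPKM in CKO replicates 2 and 4. Figla, the helix-loop-helix factor named above, had WT values of 0 to 1.45 FPKM, against 0 to 4.02 FPKM for CKO. Dazl, an RNA-binding protein of germ cells, averaged 2.14 ± 1.90 and 1.80 ± 0.966 FPKM (SD, n = 7 and 5). The log2 fold changes of Nobox, Figla and Dazl were 0.17, 0.74 and -0.09, with adjusted p of 0.792, 0.227 and 0.882 (limma). Without CKO replicates 2 and 3, that of Figla was 1.38 with adjusted p = 0.0212 (limma). Those libraries hold the lowest CKO values of Figla, 0.709 and 0 FPKM. With any 1 of the 12 libraries left out, Figla did not pass (limma, adjusted p from 0.0614 to 0.466).

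A further list held related NLRP, KH-domain and oocyte F-box genes together with Dppa5a, Uhrf1, Ube2d3, Spin1 and Kpna7. Of these 26 genes, 25 are in the table, 21 were tested, 15 fell (Uhrf1 and Kpna7 among them) and 0 rose, against 7.59% lower and 8.7% higher over all genes. At an unadjusted p under 0.05 the count was 19, 0 of them higher, against 3974 of all 13168 genes in either direction. The list had a median log2 fold change of -1.24, and 12 of its genes did not overlap between the genotypes, all lower in CKO, against 3.65% of all genes tested. Of the 21, 15 reached the filter through WT libraries and 9 had no CKO library at 1 FPKM, so the counts are a description. Fbxw24, an F-box gene expressed in oocytes, ranged from 1.81 to 6.68 FPKM in WT and was listed at 0 in 4 of 5 CKO libraries and at 0.424 FPKM in replicate 1. Fbxw19 ranged from 0.948 to 2.70 FPKM in WT and was likewise listed at 0 in 4 of 5 CKO libraries. Khdc1b, a KH-domain gene of the family of Ooep and Khdc3, averaged 15.3 ± 6.60 FPKM over WT (SD, n = 7) against 2.001 ± 1.85 FPKM over CKO (SD, n = 5). Nlrp9b had WT values of 1.10 to 4.14 FPKM, against 0 to 0.173 FPKM for CKO. The adjusted p of these 4 lay between 0.000303 and 0.000843 (limma).

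Among the other NLRP genes that could be tested, Nlrp4a, Nlrp4b, Nlrp4g, Nlrp9a and Nlrp9b fell, each without overlap of the genotypes, with log2 fold changes from -1.63 for Nlrp9b to -0.99 for Nlrp4b. All but Nlrp9b were picked with their values known. Each reached the filter through WT, and only Nlrp4b had a CKO library at 1 FPKM, so this is a description. Over all genes tested, 3.65% were lower without overlap. Nlrp4c, Nlrp4e and Nlrp9c were too low to be tested, and their values overlap between the genotypes. Uhrf1, which is described with NLRP14 and is also made by dividing somatic cells, averaged 10.5 ± 2.03 FPKM over WT (SD, n = 7) against 4.41 ± 1.64 FPKM over CKO (SD, n = 5) and fell (adjusted p = 0.00148, limma). Ube2d3, a ubiquitin-conjugating enzyme of most cells, averaged 193 ± 20.9 and 205 ± 13.1 FPKM, with adjusted p = 0.582 (limma). Both were likewise picked with their values known.

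**Figure D4:**
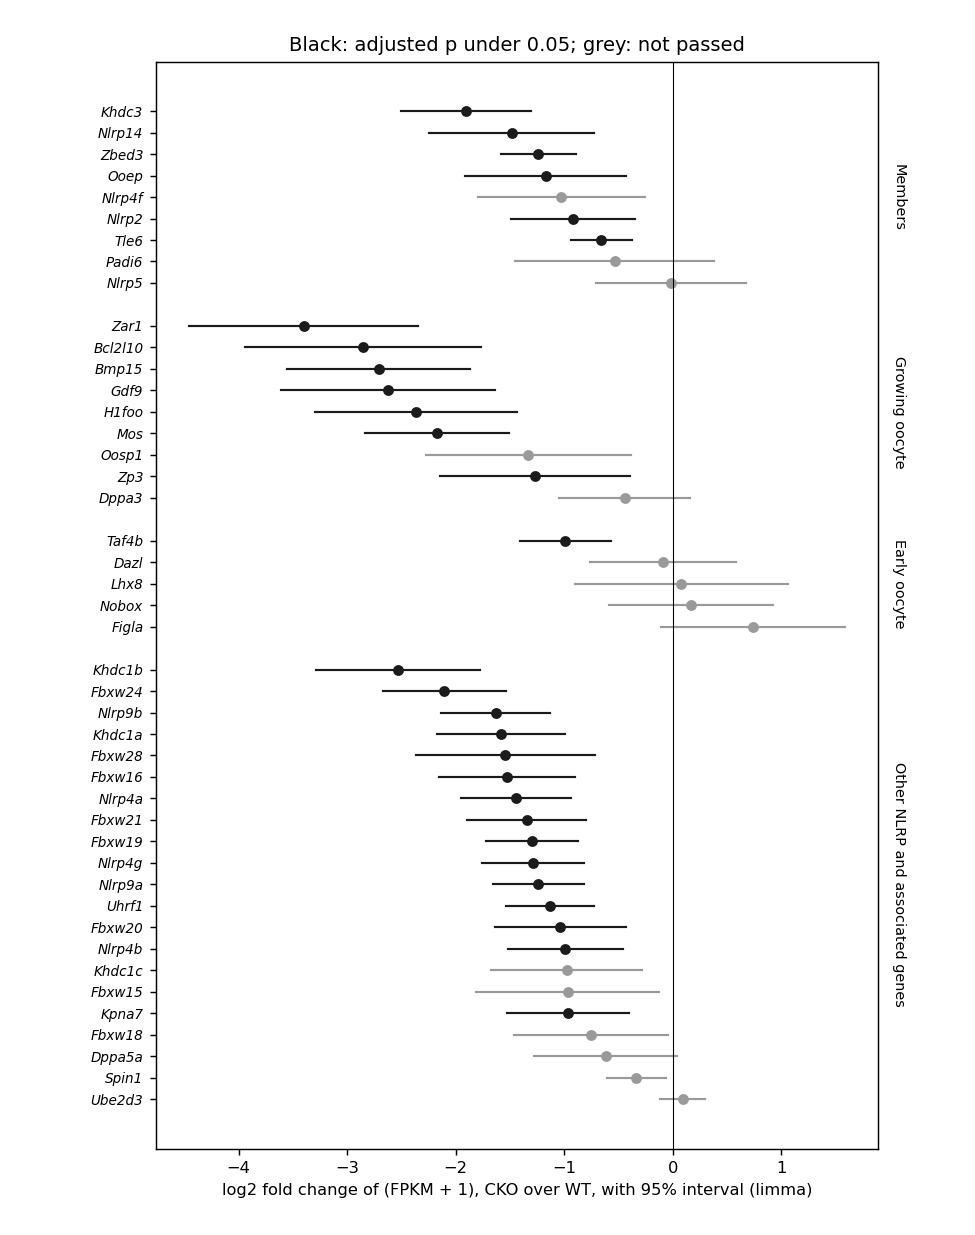
Log2 fold change of FPKM + 1, CKO over WT (horizontal axis), with its 95% interval from limma for the tested genes of the 4 groups (7 WT and 5 CKO libraries); black marks an adjusted p under 0.05. Nlrp5 sits at -0.02 beside members that reach -1.91, reference genes that reach -3.40 and related genes that reach -2.53.

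Libraries of a genotype ranked alike for most members. In WT, the unnumbered library was among the 2 highest for 9 of the 9 genes and WT replicate 2 for 7, while WT replicate 6 was among the 2 lowest for 8 and WT replicate 7 for 6. In CKO, replicate 5 was among the 2 lowest for 9 of 9, and replicate 4 among the 2 highest for 7, with Khdc3 and Tle6 as the exceptions. With genotype means removed, the 36 pairs of members had a median Pearson r of 0.72, but Tle6 reached only -0.40 (with Ooep) to 0.48 (with Khdc3). The cells from which Tle6 RNA comes were not tested. After removal of the genotype means, Mos was the gene most like Nlrp14 over the 12 libraries (Pearson r = 0.98), and Dab2, an adaptor of endocytosis, the most like both Nlrp5 (0.94) and Nlrp4f (0.95). Khdc3 was most like Gm1965 (0.91), a gene that also fell, from a mean of 6.24 to 0.465 FPKM. By the same rule, 2 genes for each member gave 17 genes with r from 0.86 to 0.98, of which 4 were called different between the genotypes, against 16.3% of all genes tested. They are the highest of 13168 genes and are given as a description.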

How the data were processed

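Poly(A) RNA from whole ovaries was sequenced in 12 libraries, 7 WT and 5 CKO. The submitters' processing notes name TopHat2 2.0.13, Cufflinks 2.2.1 and Cuffdiff and the mouse build mm10, and the deposited values are FPKM per gene. The sources used here give neither the annotation nor the scaling nor the use of strand. The deposited log2 fold changes equal CKO over WT within 0.01 in 99.9% of 13045 genes, although the name gives the other order. The deposited p-values and q-values are the authors' own. Depth was inferred from steps between FPKM values below 1 of genes with 1 annotated transcript of at least 1000 nt.

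Columns were mapped to samples by name, and 1 WT column, named like more than 1 sample, stayed unnumbered. Values were analysed as log2(FPKM + 1) in R 4.3.3 with limma 3.58.1 (trended, group only, Benjamini-Hochberg), for the 13168 genes with at least 1 FPKM in at least 5 libraries. The script was tested on simulated data. Members, lists and tests were chosen with earlier results of these data known. Named were all 9 members, the 4 genes with the smallest p of each of 3 other lists and the 2 genes most like each member. Alternatives covered pseudocount, filter, scaling, variance trend, weights, an exact Wilcoxon test, left-out libraries, a covariate and a replicate block. The numbered pairs without the block were added after seeing the data. Positions are from GENCODE M21 on mm10 and promoters from RefSeq on GRCm38.p6.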

Additional observations from a re-analysis of the deposited data

Results flagged for a closer look

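Padi6 in the unnumbered WT library was at 17.9 FPKM, the highest of the 7 WT libraries, and its distance to the next library was 0.6 of the whole WT range, above the 0.568 that marks a sample far from the others in a group of 7. This was the only such value among 18 groups checked (9 genes in 2 genotypes), and chance marks about 1 in 20. Without that library, the log2 fold change of Padi6 moved from -0.54 to -0.28 and did not pass (adjusted p = 0.653, limma).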

How the results depend on the processing

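The number of members called lower was 6 with all libraries, 4 to 7 when 1 library was left out, 0 with the growing-oocyte mean as a covariate and 3 in each of the settings without CKO replicates 2 and 3, with the replicate block, on the numbered pairs without the block and in the exact Wilcoxon test. The members were not the same throughout. With the block and on the numbered pairs, Nlrp14 passed beside Khdc3 and Zbed3, and Tle6 did not (adjusted p = 0.0542 and 0.051, limma). Without CKO replicates 2 and 3 and in the Wilcoxon test, Tle6 passed beside them and Nlrp14 did not. Over all genes, the calls of 999 lower and 1145 higher became 70 and 145 with the covariate, 622 and 756 with the replicate block, 702 higher without CKO replicates 1 and 5 and 749 higher in the exact Wilcoxon test. The covariate also left 0 of 15 calls among the related genes and 0 of 1 among the early factors. Signs were followed only for the members and the named genes, reference genes aside. Among those called with all libraries, the covariate turned the sign of Ooep (0.35), Nlrp2 (0.017), Nlrp14 (0.55) and Arhgap29 (0.30), the last chosen for its likeness to Nlrp14. Estimates of genes not called changed sign too, among them Padi6 (1.61), Nlrp4f (0.84), Fbxw15 (0.92) and Dab2 (0.30). The early factors had 1 call higher without CKO replicates 2 and 3. The 11 pairs of members fell to 0 when CKO replicates 2 and 3 were removed, to 7 when CKO replicates 1 and 5 were, and were 10 to 14 when 1 library was left out. Without either 2 CKO libraries only 120 splits remain, and the smallest adjusted p was 0.05 and 0.0429 (exact permutation test). Those 2 counts are bound by this floor and do not show that the differences were lost. The replicate block used 4 pairs of equal number. Same-numbered libraries correlated between -0.07 and 0.09 in their deviations, and 1 of the 4 CKO libraries correlated best with its own number. No pairing by number was seen in these values, and 4 pairs are too few to exclude one. Without the filter on low values, Ooep did not pass (adjusted p = 0.0552, limma). Depth limits Nlrp2 and Khdc3 in CKO, with 0 to 7 estimated fragments.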

Other observations

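Some oocyte genes of the lists were too low to be tested. Zp2, a protein of the egg coat, had WT values of 0.177 to 1.021 FPKM, against 0 to 2.01 FPKM for CKO, with its highest value in CKO replicate 4. Zp1, of the same coat, averaged 1.07 ± 0.964 FPKM over WT (SD, n = 7) against 1.021 ± 1.06 FPKM over CKO (SD, n = 5). Sohlh1, a helix-loop-helix factor of early oocytes, had WT values of 0 to 1.26 FPKM, against 0 to 3.34 FPKM for CKO, and Ddx4, the germ cell helicase, averaged 0.680 ± 0.215 and 0.599 ± 0.478 FPKM (SD, n = 7 and 5). Nlrp9c was between 0.126 and 1.45 FPKM in WT and listed at 0 in 3 of 5 CKO libraries. No test was made of these values.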
